A study of Mus musculus with 12 samples.

Results

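The genes described here build the sugar chains of mucins, other glycoproteins and some glycolipids. They are the 64 genes, of the 18929 listed in the deposited count tables, whose symbols begin with Galnt, B3gnt, B3galt, B4galt, B4galnt, Gcnt, Fut, Mgat, A4gnt, C1galt, Chst or Ggta. The choice used symbols alone and no measured value, and sialyltransferases were not among them. The genes were measured by RNA-Seq in murine jejunal enteroids, which are organ-like cultures of small intestinal epithelium grown from crypts, after 5 days of culture in ENR medium (EGF, Noggin and R-spondin). Every group carried the villin-Cre transgene, in which the villin promoter drives Cre recombinase in intestinal epithelial cells. The 4 control libraries came from villin-Cre enteroids, the 4 Hdac1-deficient libraries from villin-Cre enteroids with floxed Hdac1, and the 4 Hdac2-deficient libraries from villin-Cre enteroids with floxed Hdac2. Hdac1 and Hdac2 encode class I histone deacetylases, enzymes that remove acetyl groups from histones and other proteins. The mice had a mixed C57BL/6J, 129SV and CD1 background, and the age of the animals is not used here. The methods describe crypts from 1 mouse of each genotype, so the genotype cannot be told apart from the animal or its culture, and the p-values measure only the spread between libraries that may be technical repeats. The comparison asks whether loss of either deacetylase in the epithelium was accompanied by other levels of the transcripts of the glycosylation machinery.

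Mucin-type O-glycans begin when a polypeptide N-acetylgalactosaminyltransferase (Galnt) places N-acetylgalactosamine on a serine or threonine in the Golgi. Core enzymes then extend and branch this sugar, galactosyl- and N-acetylglucosaminyltransferases lengthen the arms, and fucose, sulfate or terminal galactose or N-acetylgalactosamine can cap them. N-glycans, which are attached to asparagine, are branched by the N-acetylglucosaminyltransferases of the Mgat family. In the intestine such chains make up much of the mass of the goblet cell mucus and of the enterocyte glycocalyx, and the fucosylated ends are used by resident bacteria. The symbol rule is wider than mucins and N-glycans. B4galnt1, B3gnt5, B3galt4, B4galt5 and B4galt6 act on glycolipids, B3galt6, B4galt7, Chst11, Chst12, Chst14 and Chst15 act on glycosaminoglycans, C1galt1c1 encodes a chaperone, and Galnt6os is an antisense RNA that encodes no enzyme.

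Promoter windows are shown for 4 genes whose transcripts differed by over 2-fold from control, because no protein sequence was used here and the results turn on these genes. Each window runs from 250 bases before to 50 bases after a RefSeq start site on GRCm38.p6, on the strand of the gene. For genes with several windows the one nearest the start of the gene in GENCODE M21 was taken, and the start sites of the Fut1 and Ggta1 windows lay 317 and 1782 bases downstream of it, so that both of these windows lie within the annotated gene. The windows are chr2:35461400-35461699 on the minus strand for Ggta1, and chr10:101681237-101681536, chr13:96924463-96924762 and chr7:45617356-45617655 on the plus strand for Mgat4c, Gcnt4 and Fut1. Capitals mark matches, on either strand, to the letters of the TATA box (TATAAA), the GC box (GGGCGG), the CCAAT box, the CDX element (TTTATGG), the GATA element (AGATAA) or the STAT element (TTCNNNGAA). The letters of no motif are contained in another.
Ggta1: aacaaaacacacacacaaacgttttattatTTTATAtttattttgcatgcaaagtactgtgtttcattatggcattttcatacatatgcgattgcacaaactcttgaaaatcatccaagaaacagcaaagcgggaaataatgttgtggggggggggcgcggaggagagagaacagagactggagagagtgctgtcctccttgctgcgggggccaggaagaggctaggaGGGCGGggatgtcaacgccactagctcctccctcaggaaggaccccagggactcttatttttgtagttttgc
Mgat4c: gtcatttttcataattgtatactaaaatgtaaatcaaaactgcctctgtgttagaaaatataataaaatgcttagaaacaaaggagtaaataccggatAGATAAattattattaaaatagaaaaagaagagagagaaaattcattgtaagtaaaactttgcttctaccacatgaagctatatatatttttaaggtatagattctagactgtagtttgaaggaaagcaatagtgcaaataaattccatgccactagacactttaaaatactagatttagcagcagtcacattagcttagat
Gcnt4: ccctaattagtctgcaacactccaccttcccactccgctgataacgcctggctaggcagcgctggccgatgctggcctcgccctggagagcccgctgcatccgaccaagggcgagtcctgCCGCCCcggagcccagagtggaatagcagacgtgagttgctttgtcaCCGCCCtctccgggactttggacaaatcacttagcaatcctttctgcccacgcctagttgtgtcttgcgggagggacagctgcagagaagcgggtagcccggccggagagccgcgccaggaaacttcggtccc
Fut1: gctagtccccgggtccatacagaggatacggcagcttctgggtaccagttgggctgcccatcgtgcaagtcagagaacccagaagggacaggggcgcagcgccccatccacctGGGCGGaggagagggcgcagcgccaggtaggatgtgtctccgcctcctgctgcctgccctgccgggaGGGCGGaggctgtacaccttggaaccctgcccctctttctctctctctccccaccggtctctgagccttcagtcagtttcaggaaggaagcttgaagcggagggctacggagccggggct

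In base composition the Gcnt4 and Fut1 windows were close, at 62.7% and 64.7% G and C, and the Ggta1 window held 46.7%. The Mgat4c window held 27.7% G and C and 1 CG dinucleotide, and 5.43% of the 32817 windows of all genes held fewer. The windows held 8 CG dinucleotides for Ggta1, 15 for Fut1 and 21 for Gcnt4, beside a median of 7 over all windows and 21 over the 49 of the 64 genes that matched a window. GC boxes were found in the windows of Gcnt4 (2), Fut1 (2) and Ggta1 (1), and in 35 of the 49, beside 35.6% of all windows. A TATA box was found in the Ggta1 window, in 3 of the 49 and in 13.6% of all windows, and an AGATAA match in the Mgat4c window, in 6 of the 49 and in 11.2% of all. CCAAT was found in 16 of the 49 and in 37.4% of all windows, TTCNNNGAA in 4 of the 49 and 8.29% of all, and TTTATGG in 0 of the 49 and 2.75% of all. Each of the 49 genes gave 1 window, the one nearest its annotated start, while the windows of all genes can include several per gene. The shares and medians of the 49 and of all windows are therefore not like for like. These matches describe letters in the windows and are neither sites nor causes.

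Libraries held 20693200 to 30658628 counts, so a count of 3, taken as the floor, equalled 0.0979 to 0.145 CPM (counts relative to library size, scaled with TMM factors), for counting error only. Hdac1 fell from 90.6 ± 2.76 CPM in control to 4.23 ± 0.83 in Hdac1-deficient enteroids, and Hdac2 fell from 137 ± 3.85 to 75.9 ± 2.89 CPM in Hdac2-deficient enteroids (SD, n = 4 each), so more reads of the targeted gene remained in the Hdac2-deficient libraries. Markers of the labelled epithelium were present. All 11 enterocyte markers were listed, with a summed level of 10039 to 10606 CPM in control, and markers of other cell types were low. Of 6 fibroblast markers 3 were listed, with sums of 3.50 to 4.67, 3.98 to 5.57 and 4.18 to 5.16 CPM in the control, Hdac1-deficient and Hdac2-deficient libraries, nearly all of it Vim. Of 4 endothelial markers Pecam1 and Tek were listed, with sums of 0.332 to 0.570, 0.413 to 0.834 and 0.629 to 0.938 CPM. The 4 listed immune markers had sums of 1.88 to 2.26, 2.69 to 3.77 and 4.08 to 5.08 CPM, and Itgam was over 2-fold higher in both mutants (1.28 and 1.69 in log2, adjusted p = 9.0e-06 and 8.5e-08), while the leukocyte marker Ptprc reached at most 0.174 CPM in any library. Among other markers, Col1a2, Col3a1, Dcn, Cdh5, Kdr and Cd3e had no row in the tables. Cell type markers differed between the groups. The enterocyte sum was 19196 to 21712 CPM in Hdac1-deficient and 15473 to 17298 in Hdac2-deficient libraries, with all 11 genes passing as higher (adjusted p no greater than 0.05) in both, beside 32.7% and 31.4% of all genes, while all 6 stem cell markers passed as lower in both, beside 31.9% and 30.9%. The 10 goblet cell markers summed to 1929 to 2158 CPM in control, 2015 to 2156 in Hdac1-deficient and 3097 to 3329 in Hdac2-deficient libraries. The listed Paneth cell markers summed to 2085 to 2428, 3055 to 3310 and 3322 to 3466 CPM. Of the 10 goblet cell markers 4 passed as higher and 2 as lower in Hdac1-deficient enteroids, beside 32.7% and 31.9% of all genes. In Hdac2-deficient enteroids 8 passed as higher and 0 as lower, beside 31.4% and 30.9%. Of 6 tested Paneth cell markers 2 passed as higher and 1 as lower in Hdac1-deficient, and 4 and 0 in Hdac2-deficient enteroids. Both sums thus join markers that moved differently in Hdac1-deficient enteroids. In such bulk libraries, fewer cells of a type and less RNA per cell cannot be told apart, and the part of these marker differences in the results below was not tested.

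In control, levels of the 64 genes ran from 0 counts for Chst2 to 402 ± 11.2 CPM for Mgat4a. Leaving the antisense RNA aside, 16 of 63 genes reached 100 CPM in control, 20 lay between 10 and 100 CPM, 18 between 1 and 10 CPM and 9 under 1 CPM. Per kilobase of annotated exon, the highest control levels were those of B4galnt2 (156 CPM per kb), which adds the terminal N-acetylgalactosamine of the Sda antigen, and B4galnt1 (69.5 CPM per kb), which makes complex gangliosides. Galnt6, Mgat4b, Gcnt3 and Galnt4 followed closely at 48.2, 48.2, 46.6 and 46.1 CPM per kb. In sum the 64 genes took 0.402% of the counts in the control, 0.405% in the Hdac1-deficient and 0.433% in the Hdac2-deficient libraries, with 3939 to 4114, 3963 to 4117 and 4318 to 4346 CPM. The range of the Hdac1-deficient libraries overlapped that of control, and the range of the Hdac2-deficient libraries lay above both.

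Most genes of this machinery shifted by less than 2-fold. In Hdac1-deficient enteroids 6 of the 57 tested genes were called (adjusted p no greater than 0.05 by edgeR's quasi-likelihood test and over 2-fold), with Ggta1, Mgat4c and Gcnt4 higher and B3gnt5, Chst15 and Fut1 lower, and this share of 10.5% stood beside 10.6% of all 14246 genes tested (6.87% higher and 3.71% lower). In Hdac2-deficient enteroids 5 of 57 were called, with B3galt5, Fut2, Galntl6 and Mgat4c higher and Ggta1 lower, which is 8.77% beside 8.3% of 14007 genes (5.45% higher and 2.84% lower). Directly compared, Hdac1-deficient differed from Hdac2-deficient enteroids in 4 of 58 genes, with Ggta1 and B4galt2 higher and B3gnt5 and Galntl6 lower in Hdac1-deficient, which is 6.9% beside 5.62% of 14510 genes (2.74% higher and 2.89% lower). The shares called were thus near those of all genes in the 3 comparisons. At any fold, 41 genes passed the adjusted p in Hdac1-deficient (24 higher, 17 lower) and 44 in Hdac2-deficient enteroids (28 higher, 16 lower), or 71.9% and 77.2%, beside 64.6% (32.7% higher, 31.9% lower) and 62.3% (31.4% higher, 30.9% lower) of all genes. The median log2 fold change of the 57 tested genes was 0.11 in both comparisons, beside 0.00 over all genes.

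The called genes were, with 1 exception, low in level. Among tested genes under 10 CPM in control, 5 of 21 were called in either comparison with control, beside 24.4% (Hdac1-deficient) and 20.4% (Hdac2-deficient) of all genes at such levels. Among those at 10 CPM or more, 1 of 36 (Gcnt4) was called in Hdac1-deficient and 0 of 36 in Hdac2-deficient enteroids, beside 3.24% and 2.18% of all genes. None of the 16 genes at 100 CPM or more moved by over 2-fold, and the largest change among them was that of Galnt4 in both comparisons. The comparisons share their control libraries, so their values are given side by side. In both of them 20 genes passed as higher and 10 as lower, and 4 passed in opposite directions (Ggta1, B4galnt1, Galnt7 and Mgat5). A further 7 passed in Hdac1-deficient enteroids only, 10 in Hdac2-deficient only, and 6 in neither. Of all genes, 64.6% passed with Hdac1 deficiency and 62.3% with Hdac2 deficiency, but this split was not counted over them. Whether the overlap of the comparisons is particular to this machinery was therefore not tested.

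**Figure D1:**
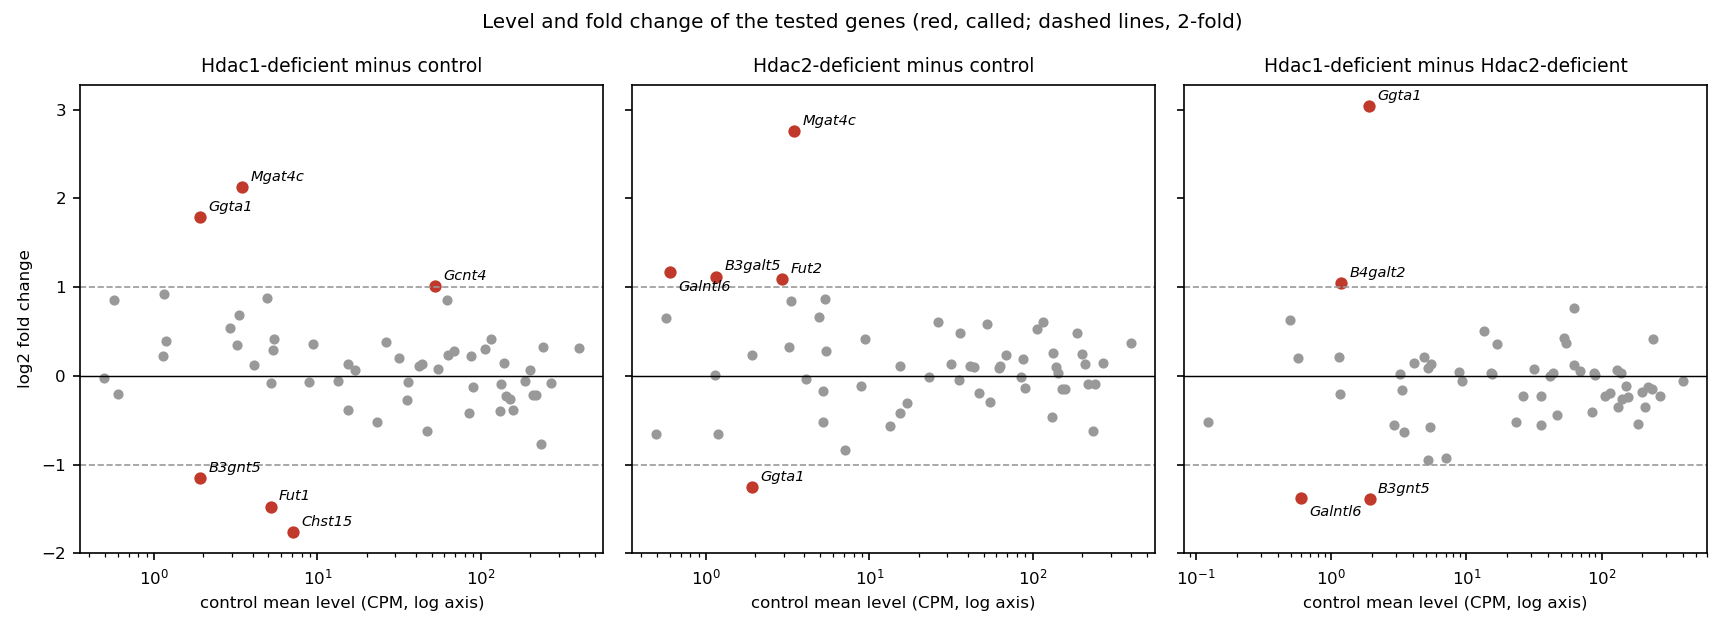
Each point is a tested gene, with its mean level in control (CPM, log axis) against its log2 fold change in the 3 comparisons, called genes in red and named. All called genes but Gcnt4 lie under 10 CPM in control, and the genes at 100 CPM or more stay within the dashed lines at 2-fold.

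Ggta1 showed opposite changes in the mutants. It encodes the galactosyltransferase that makes the terminal alpha-galactosyl epitope of most mammals other than Old World primates and humans, and lies at chr2:35400179-35463231 on GRCm38 (ENSMUSG00000035778). Its level in the 4 control libraries was 1.64, 1.77, 2.12 and 2.09 CPM. In the Hdac1-deficient libraries it was 6.79, 5.96, 6.16 and 7.22 CPM, and in the Hdac2-deficient libraries 0.848, 0.977, 0.581 and 0.694 CPM. The 3 groups did not overlap, with Hdac1-deficient libraries the highest and Hdac2-deficient libraries the lowest. Ggta1 was thus 3.46-fold higher than control in Hdac1-deficient enteroids (log2 fold change 1.79 ± 0.12, SE, adjusted p = 5.8e-11) and 2.39-fold lower in Hdac2-deficient enteroids (-1.26 ± 0.20, adjusted p = 1.3e-05). Set against each other, the mutants differed by 3.04 ± 0.15 in log2 (adjusted p = 4.3e-15). The Hdac2-deficient libraries held only 12 to 25 Ggta1 counts each.

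Among the genes of the N-glycan branching family, Mgat4c rose most. The 7 Mgat genes all passed the adjusted p in both comparisons with control, 5 higher and 2 lower in Hdac1-deficient and 6 higher and 1 lower in Hdac2-deficient enteroids, beside 64.6% and 62.3% of all genes passing. The sum of the 7 was 965 to 1028 CPM in control, 1036 to 1138 in Hdac1-deficient and 1168 to 1183 in Hdac2-deficient libraries. Mgat4c is named as a relative of Mgat4a and Mgat4b, and lies at chr10:101681487-102391469 (ENSMUSG00000019888). Whether its product adds the same branch was not tested. Mgat4c measured 3.42, 3.89, 3.08 and 3.38 CPM in control libraries. The values were 14.1, 13.1, 15.5 and 16.9 CPM in Hdac1-deficient and 25.0, 22.3, 23.1 and 21.8 CPM in Hdac2-deficient libraries. Every mutant library lay above every control library, and every Hdac2-deficient library above every Hdac1-deficient one. The change was 4.37-fold in Hdac1-deficient (log2 2.13 ± 0.10, adjusted p = 2.1e-13) and 6.76-fold in Hdac2-deficient enteroids (2.76 ± 0.08, adjusted p = 2.9e-17), and the mutants differed by 0.63 in log2 (Hdac1-deficient lower, adjusted p = 3.5e-08).

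The other Mgat genes moved by less. Mgat1, which starts complex N-glycans, was 0.23 ± 0.04 higher in log2 in Hdac1-deficient and 0.11 ± 0.04 higher in Hdac2-deficient enteroids. Mgat3, which adds the bisecting residue, rose by 0.30 ± 0.04 and 0.52 ± 0.03, from 106 ± 4.36 CPM to 129 ± 8.61 and 151 ± 4.00 CPM. Mgat5 passed in opposite directions, with -0.22 ± 0.04 in Hdac1-deficient against 0.13 ± 0.04 in Hdac2-deficient enteroids, a difference between the mutants of -0.35 ± 0.04 (adjusted p = 2.0e-08). Of the remaining pair of Mgat4 genes, Mgat4a rose (0.31 ± 0.04 and 0.37 ± 0.03) and Mgat4b fell (-0.40 ± 0.03 and -0.46 ± 0.03). Per kilobase, Mgat4a therefore made up 39.1 ± 0.34% of the Mgat4 transcripts in the control, 50.4 ± 1.83% in the Hdac1-deficient and 52.0 ± 0.68% in the Hdac2-deficient libraries (SD, n = 4). Mgat4c, despite the size of its fold change, stayed a small part at 0.404%, 1.84% and 2.81%.

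**Figure D2:**
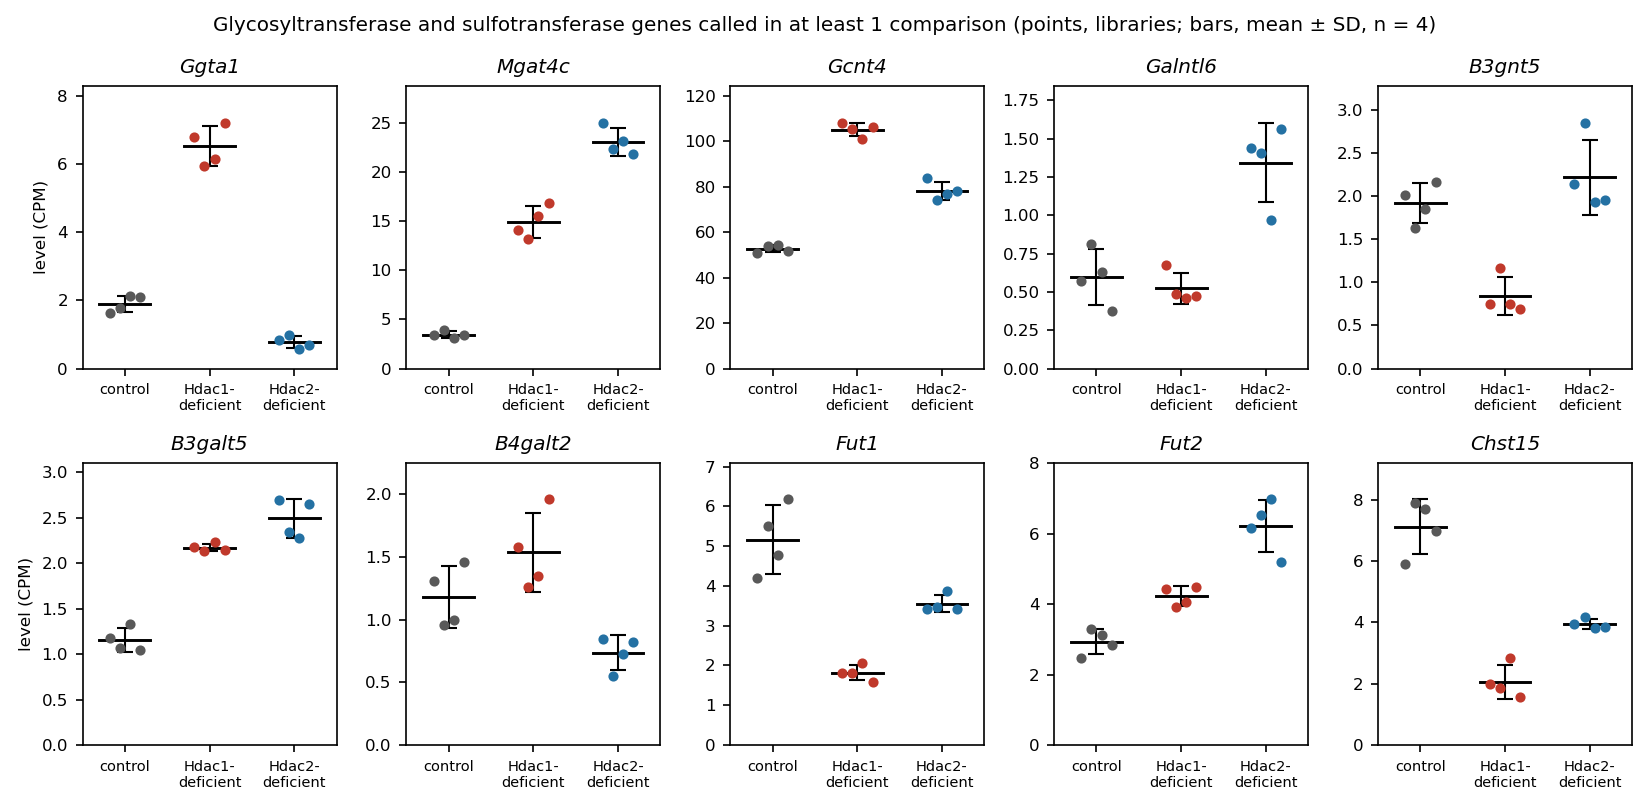
Levels in CPM of the 10 genes called in at least 1 comparison, with 1 point per library and bars for the mean and SD of 4 libraries per group. Ggta1 stands highest in Hdac1-deficient and lowest in Hdac2-deficient libraries, and Mgat4c rises in both mutants.

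The fucosyltransferases changed in composition. Of 6 tested genes, 4 passed in Hdac1-deficient (2 higher, 2 lower) and 5 in Hdac2-deficient enteroids (2 higher, 3 lower), or 66.7% and 83.3% beside 64.6% and 62.3% of all genes, and Fut7 was not tested at 0.109 to 0.124 CPM. Fut1 and Fut2 encode the enzymes that make the H antigen, Fut2 being the form known for secreted and intestinal glycans, and the genes neighbour each other at chr7:45617289-45621059 (ENSMUSG00000008461) and chr7:45648591-45666394 (ENSMUSG00000055978). Fut1 measured 4.19, 5.52, 4.78 and 6.18 CPM in control, 1.80, 1.81, 2.07 and 1.60 CPM in Hdac1-deficient and 3.43, 3.48, 3.87 and 3.43 CPM in Hdac2-deficient libraries. The groups did not overlap, and Fut1 fell 2.78-fold in Hdac1-deficient (-1.48 ± 0.14, adjusted p = 1.5e-08) and 1.44-fold in Hdac2-deficient enteroids (-0.52 ± 0.12, adjusted p = 0.00096). Fut2 measured 2.48, 3.29, 3.12 and 2.84 CPM in control libraries. The values were 4.43, 3.92, 4.06 and 4.50 CPM in Hdac1-deficient and 6.16, 6.53, 6.97 and 5.21 CPM in Hdac2-deficient libraries. Again no groups overlapped, and Fut2 moved against the direction of Fut1 in both mutants, with a 1.45-fold rise in Hdac1-deficient (0.54 ± 0.12, adjusted p = 0.00041) and a 2.13-fold rise in Hdac2-deficient enteroids (1.09 ± 0.12, adjusted p = 6.4e-08). The share of Fut1 in the sum of Fut1 and Fut2 per kilobase was 77.3 ± 2.56% in the control, 45.6 ± 3.86% in the Hdac1-deficient and 52.8 ± 2.32% in the Hdac2-deficient libraries.

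Fut8, the core fucosyltransferase of N-glycans and the main fucosyltransferase in these libraries at 158 ± 7.38 CPM in control, fell by less, to 120 ± 3.44 CPM in Hdac1-deficient (-0.38 ± 0.04, adjusted p = 1.8e-08) and 141 ± 5.77 CPM in Hdac2-deficient enteroids (-0.15 ± 0.04, adjusted p = 0.0011). Fut4, which adds the fucose of Lewis x structures, rose from 4.88 ± 0.46 CPM to 8.90 ± 0.81 CPM (0.88 ± 0.09) and 7.68 ± 0.43 CPM (0.66 ± 0.09). Fut11 was at -0.06 ± 0.06 in Hdac1-deficient enteroids (adjusted p = 0.42) and fell by 0.57 in log2 in Hdac2-deficient enteroids, and Fut10 passed in neither. Per kilobase, Fut8 made up 72.4 ± 0.94% of the fucosyltransferase transcripts in the control, 66.8 ± 0.39% in the Hdac1-deficient and 71.1 ± 0.75% in the Hdac2-deficient libraries. The genes that supply GDP-fucose moved by less than 2-fold. In either comparison with control 0 of 6 tested genes were called, beside 10.6% and 8.3% of all genes. The Golgi GDP-fucose transporter Slc35c1 was 0.64 ± 0.04 and 0.46 ± 0.04 higher in log2 in Hdac1-deficient and Hdac2-deficient enteroids.

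The enzymes that start O-glycans were lower in sum in Hdac1-deficient enteroids, and their make-up differed from control in both mutants. The sum was 924 to 963 CPM in control, 792 to 828 in Hdac1-deficient and 953 to 969 in Hdac2-deficient libraries. Of 11 tested genes, 3 passed as higher and 5 as lower in Hdac1-deficient, and 6 as higher and 2 as lower in Hdac2-deficient enteroids, or 72.7% in each beside 64.6% and 62.3% of all genes. Galnt4, which prefers peptides that already carry a sugar, fell from 228, 242, 238 and 233 CPM in control to 141, 139, 134 and 132 CPM in Hdac1-deficient and 150, 156, 153 and 147 CPM in Hdac2-deficient libraries. No mutant library reached the lowest control library, and the changes were -0.77 ± 0.03 (adjusted p = 8.0e-14) and -0.62 ± 0.03 (adjusted p = 1.8e-13). On the annotation used here, 8.25% of the exon bases of Galnt4 also belong to Poc1b on the same strand. Galnt6 measured 185, 188, 190 and 184 CPM in control, 177, 179, 174 and 180 CPM in Hdac1-deficient and 255, 254, 265 and 263 CPM in Hdac2-deficient libraries. It was at -0.06 ± 0.03 in Hdac1-deficient (adjusted p = 0.094) and rose by 0.48 ± 0.03 in Hdac2-deficient enteroids (adjusted p = 2.6e-12). Per kilobase, the share of Galnt4 in the Galnt transcripts was 22.9 ± 0.33% in the control, 15.6 ± 0.25% in the Hdac1-deficient and 14.3 ± 0.37% in the Hdac2-deficient libraries, and that of Galnt6 was 23.9 ± 0.22%, 26.6 ± 0.56% and 32.1 ± 0.43%.

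Galnt3, known for glycosylating the phosphate hormone FGF23, fell in Hdac1-deficient enteroids from 84.8 ± 4.03 to 62.8 ± 1.21 CPM (-0.42 ± 0.04) and was at 83.6 ± 4.29 CPM in Hdac2-deficient enteroids (adjusted p = 0.85). Galnt12 likewise fell in Hdac1-deficient enteroids (-0.28 ± 0.05) and was at -0.05 ± 0.05 in Hdac2-deficient enteroids (adjusted p = 0.35). The direct difference between the mutants was -0.41 ± 0.04 for Galnt3 (adjusted p = 3.4e-09) and -0.23 ± 0.05 for Galnt12 (adjusted p = 0.0003). Galnt1, the broadly expressed starter, rose by 0.14 ± 0.03 and 0.10 ± 0.03, and Galnt7 passed in opposite directions at -0.09 ± 0.04 and 0.26 ± 0.03. Galntl6, at chr8:57774052-58912640 (ENSMUSG00000096914), was the only called gene of this group. It was low in all libraries, with 0.570, 0.813, 0.630 and 0.376 CPM in control, 0.675, 0.486, 0.459 and 0.471 CPM in Hdac1-deficient and 1.44, 1.41, 0.968 and 1.56 CPM in Hdac2-deficient libraries, or 9 to 39 counts. The Hdac2-deficient libraries lay above all others, with a 2.25-fold change against control (1.17 ± 0.24, adjusted p = 0.00024) and a difference between the mutants of -1.37 ± 0.24 (adjusted p = 3.7e-05). Galnt2 is listed at 5.17 ± 1.11 CPM in control, and 90.0% of its exon bases also belong to Gm20388 on the same strand, so its level is uncertain. Galnt18 and the antisense RNA Galnt6os, at under 1 CPM, were not tested.

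Core and branch enzymes of O-glycans were mostly higher in Hdac2-deficient enteroids. Of 7 tested genes 5 passed as higher and 1 as lower there, against 3 higher and 1 lower in Hdac1-deficient enteroids, beside 31.4% and 32.7% of all genes higher at any fold. C1galt1, which makes core 1, fell from 151 ± 7.84 CPM to 125 ± 3.21 CPM (-0.26 ± 0.04) and 135 ± 1.34 CPM (-0.15 ± 0.03). Its chaperone C1galt1c1, on the X chromosome, was at 44.0 ± 3.17, 47.6 ± 1.04 and 46.7 ± 3.17 CPM in control, Hdac1-deficient and Hdac2-deficient enteroids. It passed in Hdac1-deficient (0.13 ± 0.05, adjusted p = 0.024) and not in Hdac2-deficient enteroids (0.10 ± 0.05, adjusted p = 0.11), and its libraries overlapped in all 3 groups. The X inactivation RNA Xist was at 1.41 to 1.72 CPM in control libraries. It was at 776 to 1076 CPM with Hdac1 deficiency and 494 to 676 CPM with Hdac2 deficiency. The Y chromosome genes Ddx3y, Eif2s3y, Kdm5d and Uty were not listed for any group, control included. The sex of the animals was not tested. The median change of protein-coding genes on the X chromosome was -0.02 with Hdac1 deficiency and -0.04 with Hdac2 deficiency, in log2. B3gnt6, which makes core 3, was at 0.123, 0.300 and 0.436 CPM in control, Hdac1-deficient and Hdac2-deficient enteroids, with 2 to 13 counts per library, and was tested between the mutants alone (-0.52 ± 0.34, adjusted p = 0.23). With the low-count filter lifted, B3gnt6 was called higher in both comparisons with control.

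Core 2 is made by Gcnt1, Gcnt3 and Gcnt4, and Gcnt4 was the only gene of this machinery above 10 CPM in control to be called. Gcnt4, at chr13:96924689-96950906 (ENSMUSG00000091387), measured 51.0, 54.0, 54.4 and 51.6 CPM in control, 108, 105, 101 and 106 CPM in Hdac1-deficient and 83.7, 74.2, 76.7 and 78.1 CPM in Hdac2-deficient libraries. The 3 groups did not overlap, with Hdac1-deficient highest. Its change in Hdac1-deficient enteroids was 2.01-fold (1.01 ± 0.04, adjusted p = 9.0e-15), just over the 2-fold limit. It came to 0.99 without control replicate 1, to 1.00 without control replicate 4 and to 1.00 without Hdac1-deficient replicate 1, each just under the limit. In Hdac2-deficient enteroids Gcnt4 rose 1.49-fold (0.58 ± 0.04, adjusted p = 7.2e-11). Gcnt3, the mucin-type core enzyme of the gut, was the most abundant of the 3 at 201 ± 4.87 CPM in control, and was at 208 ± 8.11 CPM in Hdac1-deficient (adjusted p = 0.087) and 236 ± 8.49 CPM in Hdac2-deficient enteroids (0.24 ± 0.03, adjusted p = 7.1e-07). Gcnt1 was at 5.35 ± 0.62, 6.54 ± 1.93 and 9.73 ± 0.76 CPM in control, Hdac1-deficient and Hdac2-deficient enteroids, and rose in Hdac2-deficient enteroids (0.86 ± 0.09, adjusted p = 5.1e-08). It is the only one of the 64 genes on chromosome 19, where the median change of protein-coding genes was -0.53 for Hdac1-deficient and -0.52 for Hdac2-deficient enteroids. Per kilobase, Gcnt4 made up 17.9 ± 0.30% of the core 2 transcripts in the control, 29.4 ± 1.06% in the Hdac1-deficient and 21.4 ± 1.34% in the Hdac2-deficient libraries. A4gnt, the enzyme that caps gastric gland mucin with N-acetylglucosamine, rose by 0.42 ± 0.10 and 0.29 ± 0.09 from 5.45 ± 0.13 CPM, while Muc6, the mucin it is known for, had no row in the tables. The listed gastric and Brunner gland markers summed to 2.84 to 3.61, 2.94 to 3.18 and 8.11 to 9.41 CPM in control, Hdac1-deficient and Hdac2-deficient libraries. Most of the sum was Pdx1 (means of 2.32, 1.90 and 6.66 CPM) and Tff1 (0.84, 0.86 and 2.12 CPM). The part of these markers in the A4gnt level was not tested.

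**Figure D3:**
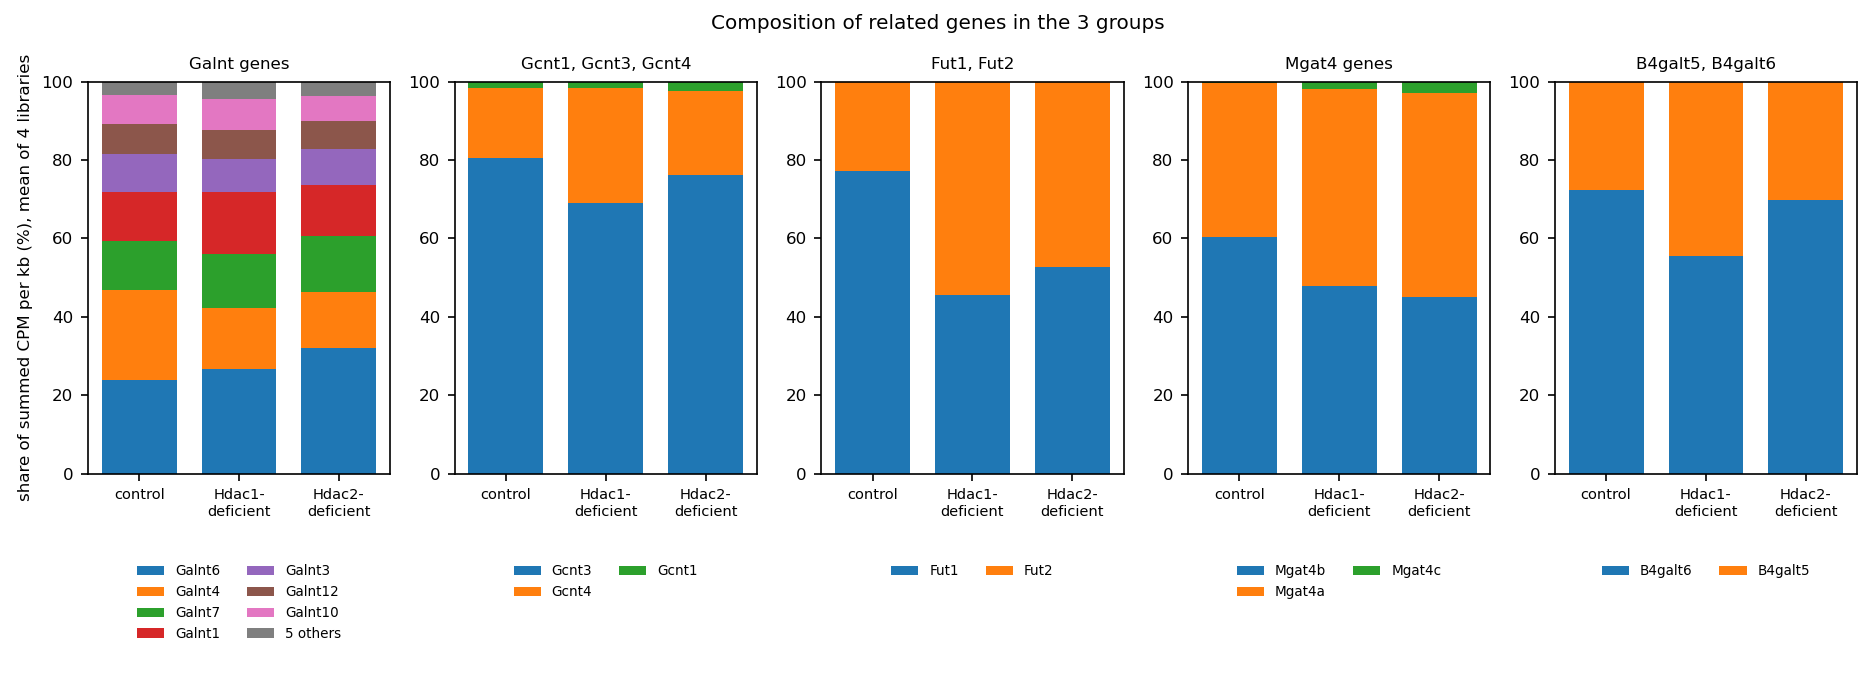
Stacked bars give the mean share (n = 4 libraries) that each gene takes of the summed CPM per kb of its family or pair, in percent, in the 3 groups. Fut1 falls from 77.3% of the Fut1 and Fut2 sum to 45.6% and 52.8%, and Gcnt4 takes its largest share, 29.4%, in Hdac1-deficient libraries.

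Among the enzymes that extend the chains, 12 of 16 tested genes passed in Hdac1-deficient (7 higher, 5 lower) and 11 in Hdac2-deficient enteroids (7 higher, 4 lower), or 75% and 68.8% beside 64.6% and 62.3% of all genes. The sum of the 17 genes was 746 to 760, 775 to 800 and 803 to 821 CPM in control, Hdac1-deficient and Hdac2-deficient libraries. B3gnt3, which lengthens core 1, rose in both mutants, from 115 ± 2.71 CPM to 152 ± 4.17 CPM (0.42 ± 0.03) and 175 ± 1.75 CPM (0.61 ± 0.03). B3gnt7, which lengthens lactosamine chains, rose from 68.8 ± 2.85 CPM by 0.28 ± 0.04 and 0.23 ± 0.04. B4galt1, the general lactosamine galactosyltransferase, fell in Hdac1-deficient enteroids (-0.22 ± 0.03) and was at 0.03 ± 0.03 in Hdac2-deficient enteroids (adjusted p = 0.37). The lactosylceramide synthase gene B4galt5 showed the largest difference between the mutants among the genes above 10 CPM in control. It measured 62.4, 60.8, 60.9 and 63.6 CPM in control, 112, 106, 115 and 111 CPM in Hdac1-deficient and 64.3, 64.6, 67.4 and 65.5 CPM in Hdac2-deficient libraries. The Hdac1-deficient libraries stood apart from the rest, with changes of 0.86 ± 0.04 in Hdac1-deficient (adjusted p = 9.8e-14) and 0.09 ± 0.04 in Hdac2-deficient enteroids (adjusted p = 0.034) and a difference of 0.76 ± 0.04 between the mutants (adjusted p = 9.5e-16). B4galt6, the other lactosylceramide synthase gene, fell by 0.21 in log2 in Hdac1-deficient enteroids, so that B4galt5 took 44.4 ± 0.79% of the pair per kilobase there, beside 27.6 ± 0.97% in control and 30.2 ± 0.72% in Hdac2-deficient libraries.

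Called genes of chain extension were all under 3 CPM. B3gnt5, which starts the lacto-series glycolipids (chr16:19760208-19772753, ENSMUSG00000022686), measured 2.01, 1.63, 1.86 and 2.17 CPM in control, 0.750, 1.17, 0.754 and 0.689 CPM in Hdac1-deficient and 2.14, 2.85, 1.94 and 1.95 CPM in Hdac2-deficient libraries. Only the Hdac1-deficient libraries stood apart, 2.23-fold lower than control (-1.16 ± 0.19, adjusted p = 2.9e-05) and 2.63-fold lower than Hdac2-deficient libraries (-1.39 ± 0.20, adjusted p = 1.7e-06). B3galt5, which makes type 1 chains (chr16:96235801-96319859, ENSMUSG00000074892), measured 1.17, 1.06, 1.33 and 1.04 CPM in control, 2.18, 2.14, 2.23 and 2.14 CPM in Hdac1-deficient and 2.69, 2.34, 2.27 and 2.65 CPM in Hdac2-deficient libraries. All mutant libraries lay above control, with changes of 0.92 ± 0.15 (adjusted p = 2.7e-05) and 1.12 ± 0.16 (adjusted p = 3.3e-06), of which the second alone passed 2-fold, and the mutants did not pass a test of their difference (-0.20 ± 0.14, adjusted p = 0.24). B4galt2, a further lactosamine galactosyltransferase (chr4:117869260-117883487, ENSMUSG00000028541), measured 1.31, 0.955, 0.995 and 1.46 CPM in control, 1.58, 1.26, 1.34 and 1.96 CPM in Hdac1-deficient and 0.848, 0.547, 0.726 and 0.824 CPM in Hdac2-deficient libraries. Hdac1-deficient and Hdac2-deficient libraries did not overlap and differed 2.07-fold (1.05 ± 0.22, adjusted p = 0.00034), and that call was lost without Hdac1-deficient replicate 4 (0.91) or Hdac2-deficient replicate 2 (0.92). The exons of B4galt2 overlap those of Ccdc24 on the same strand over 28.2% of their length. B3gnt2 is uncertain for the same reason, with 58.6% of its exon bases shared with Gm28048.

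The 4 genes that add terminal N-acetylgalactosamine all changed by less than 2-fold. At any fold 2 of the 4 passed in Hdac1-deficient enteroids, and all 4 passed both in Hdac2-deficient enteroids and between the mutants, beside 64.6%, 62.3% and 45.9% of all genes. B4galnt2 was at 269 ± 18.2 CPM in the controls, 253 ± 4.65 CPM in Hdac1-deficient (-0.08 ± 0.04, adjusted p = 0.099) and 295 ± 2.66 CPM in Hdac2-deficient enteroids (0.14 ± 0.04, adjusted p = 0.0031). B4galnt1 passed in opposite directions, rising from 240 ± 4.22 to 298 ± 7.46 CPM in Hdac1-deficient (0.33 ± 0.03) and falling to 224 ± 8.06 CPM in Hdac2-deficient enteroids (-0.09 ± 0.03), a difference of 0.42 ± 0.03 between the mutants (adjusted p = 1.4e-11). The libraries of the 3 groups of B4galnt1 did not overlap. B4galnt3 stood at 26.2 ± 2.22 CPM in control and rose in both mutants, reaching 33.9 ± 2.78 CPM (0.38 ± 0.06) with Hdac1 deficiency and 39.6 ± 1.30 CPM (0.61 ± 0.05, or 1.52-fold) with Hdac2 deficiency. B4galnt4 stood at 54.8 ± 1.05 CPM in control. Its change was 0.08 ± 0.04 in Hdac1-deficient enteroids (adjusted p = 0.12), and it fell by 0.29 in log2 in Hdac2-deficient enteroids.

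Sulfotransferase transcripts were lower in sum, with 46.3 to 49.5 CPM in the control, 36.2 to 38.8 CPM in the Hdac1-deficient and 39.7 to 45.6 CPM in the Hdac2-deficient libraries, and the control libraries lay above all mutant libraries. Of 5 tested genes, 1 passed as higher and 2 as lower in Hdac1-deficient, and 0 as higher and 2 as lower in Hdac2-deficient enteroids, or 60% and 40% beside 64.6% and 62.3% of all genes. Chst15, which sulfates chondroitin (chr7:132235780-132317228, ENSMUSG00000030930), measured 5.90, 7.89, 7.69 and 6.97 CPM in control, 1.99, 1.85, 2.85 and 1.56 CPM in Hdac1-deficient and 3.95, 4.18, 3.82 and 3.86 CPM in Hdac2-deficient libraries. The groups did not overlap, and Chst15 fell 3.39-fold in Hdac1-deficient (-1.76 ± 0.15, adjusted p = 4.9e-09) and 1.78-fold in Hdac2-deficient enteroids (-0.83 ± 0.10, adjusted p = 6.4e-07). Chst4, which sulfates N-acetylglucosamine on mucin-type chains, had the highest CPM of the family in control. It fell in Hdac1-deficient enteroids from 23.3 ± 0.85 to 16.0 ± 1.02 CPM (-0.52 ± 0.06, adjusted p = 1.3e-07) and was at 22.8 ± 2.33 CPM in Hdac2-deficient enteroids (adjusted p = 0.88). Chst11 was at 0.06 ± 0.07 in Hdac1-deficient (adjusted p = 0.45) and fell by 0.30 in log2 in Hdac2-deficient enteroids (adjusted p = 0.00081). Against the direction of the sum, Chst14, which sulfates dermatan and averaged under 1 CPM in each group, passed as higher in Hdac1-deficient enteroids (0.85 ± 0.26, 1.80-fold, adjusted p = 0.007), and it was among the called genes without control replicate 4. Chst2 and Chst8 were not tested. Chst2 had a row in the Hdac2 table alone, with 0 counts in the 4 control and 4 to 9 counts in the Hdac2-deficient libraries. Of the 7 genes that supply the sulfate donor, the sulfate transporter gene Slc26a2 alone was called, beside 10.6% and 8.3% of all genes. It was higher in both mutants, from 58.4 ± 2.45 CPM to 122 ± 10.5 CPM (1.07 ± 0.05) and 170 ± 1.27 CPM (1.55 ± 0.03). At any fold, 5 of the 7 passed as higher and 1 as lower in Hdac1-deficient enteroids, beside 32.7% and 31.9% of all genes. In Hdac2-deficient enteroids 4 passed as higher and 3 as lower (Papss1, Slc35b2 and Impad1), beside 31.4% and 30.9%.

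**Figure D4:**
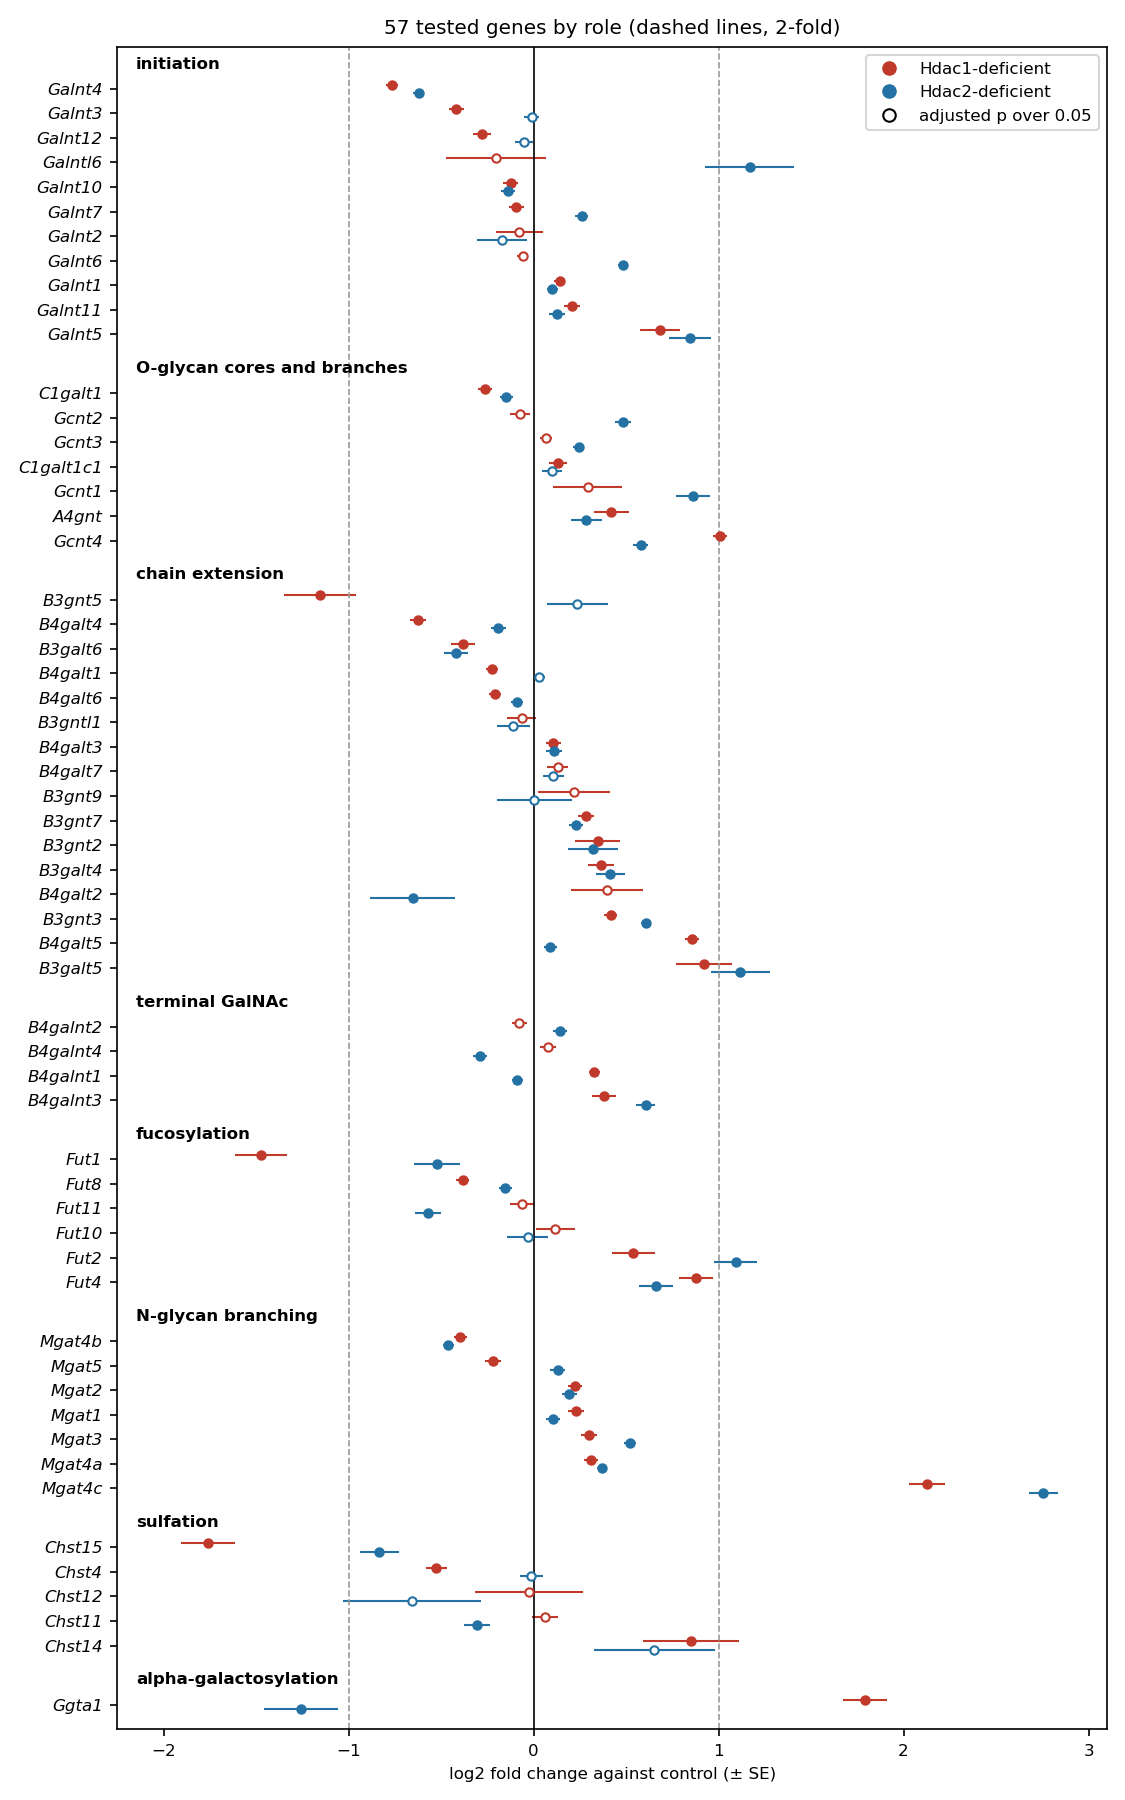
Log2 fold changes with SE of the 57 genes tested in both comparisons with control, grouped by role, red for Hdac1-deficient and blue for Hdac2-deficient enteroids. Filled circles passed an adjusted p of 0.05, open circles did not, and dashed lines mark 2-fold. The largest changes are those of Mgat4c, Ggta1, Chst15 and Fut1 in Hdac1-deficient and those of Mgat4c and Ggta1 in Hdac2-deficient enteroids.

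Between the mutants themselves, 35 of 58 tested genes passed the adjusted p at any fold, 10 higher and 25 lower in Hdac1-deficient enteroids, which is 60.3% beside 45.9% of all genes (22.3% higher and 23.7% lower). The median difference was -0.06 in log2, beside 0.01 over all genes. Lower in Hdac1-deficient enteroids were 6 of the 11 tested starters of O-glycans and none was higher, with Galnt6 (-0.54 ± 0.03) the largest above 100 CPM. Libraries of the mutants did not overlap for 35 genes, beside 41.7% of all genes tested. Against control, 37 genes of Hdac1-deficient and 41 of Hdac2-deficient enteroids had no overlap, beside 58.5% and 56.0% of all genes.

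Other genes of the pathway, taken from fixed lists, mostly stayed under 2-fold. So did most genes, with 10.6% and 8.3% of all tested genes called in Hdac1-deficient and Hdac2-deficient enteroids. Of the 16 tested genes that supply UDP-N-acetylhexosamines and UDP-galactose, Galt, which converts galactose-phosphate, was alone in being called. Galt was higher in both mutants, from 9.16 ± 0.68 CPM to 19.5 ± 1.80 CPM (1.10 ± 0.07) and 19.1 ± 0.35 CPM (1.07 ± 0.06). At any fold 7 of the 16 passed as higher and 5 as lower in Hdac1-deficient enteroids, beside 32.7% and 31.9% of all genes. With Hdac2 deficiency 8 passed as higher and 4 as lower, beside 31.4% and 30.9%. Slc35a3 fell most of the 16 in both comparisons, from 426 ± 14.8 CPM (-0.76 ± 0.03 and -0.40 ± 0.03). The 10 genes of N-glycan trimming gave 0 calls in either comparison with control, beside 10.6% and 8.3% of all genes. At any fold 2 passed as higher and 5 as lower in Hdac1-deficient enteroids, beside 32.7% and 31.9% of all genes. In Hdac2-deficient enteroids 2 passed as higher and 4 as lower, beside 31.4% and 30.9%. Ganab fell most of these genes in both comparisons (-0.58 ± 0.03 and -0.49 ± 0.03) and lies on chromosome 19. The median change of protein-coding genes there was -0.53 and -0.52, and its part in the Ganab level was not tested. The 10 other Golgi genes listed, mostly of its scaffold, encode no glycosylating enzyme and gave 0 calls too, with median changes of 0.12 and 0.15. Of 5 tested mucin core proteins, Muc3 was called, in Hdac2-deficient enteroids alone among the comparisons with control, from 50.0 ± 2.87 to 132 ± 12.3 CPM (1.41 ± 0.07), and it differed between the mutants by -1.28 ± 0.06. Muc2, the secreted goblet cell mucin, rose from 42.2 ± 7.54 CPM to 83.0 ± 6.94 CPM (0.99 ± 0.13, adjusted p = 0.0003) and 82.9 ± 12.3 CPM (0.98 ± 0.16, adjusted p = 0.0018), just under the 2-fold limit.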

How the data were processed

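The data are gene counts from 12 RNA-Seq libraries, grouped by genotype as labelled. Per the labels and the methods, poly(A) RNA was made into directional libraries, sequenced as paired reads and aligned to GRCm38 with STAR (2.4.0f1 in the submitters' processing notes), and the counting program, its strand setting and the annotation release are not given in the sources used here, so overlapping genes cannot be separated. The authors deposited raw integer counts per gene, not normalized, in 1 table per mutant. Both tables hold the same 4 control libraries and only genes whose counts sum to 10 or more. The authors' normalized values, log2 fold changes, average log2 CPM and p-values from DESeq and edgeR were not used.

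Counts were tested with edgeR 4.0.16 in R 4.3.3 (quasi-likelihood F test, robust, TMM, filterByExpr), with Benjamini-Hochberg adjustment over all genes tested. The 8 libraries of each table gave the comparisons with control, and all 12, over genes in both tables, the difference between the mutants. Calls required an adjusted p no greater than 0.05 and over 2-fold change, the thresholds of the study. The SE was taken as log2 fold change over the root of F. CPM levels used the TMM factors of all 12 libraries, 0.980 to 1.02, and CPM per kb the union of annotated exons (GENCODE M21, which held 99.4% of the gene identifiers and all 64 genes). Promoters came from RefSeq. Named are the called genes, a fixed list of core enzymes, and up to 3 called genes per other list. The untested genes and Galnt6, Mgat4b, B4galt5, B4galnt3, B4galnt4, Fut10, Fut11, Galnt2, B3gnt2, B4galt6, Slc35c1, Muc2, Chst11, Chst14, Papss1, Slc35b2, Impad1, Vim, Itgam, Pdx1 and Tff1 were named after their values were seen. Ganab and Slc35a3 were also named after their values were seen. The genes, roles and lists were chosen with earlier results of these data known. Alternatives were RLE size factors, library size alone, no low-count filter, a mean of at least 10 counts, DESeq2 1.42.0, the replicate number as a block, no fold limit, other libraries in the fit, chromosomes X, Y and 19 omitted, and single libraries omitted. No library was left out of the main tests. Python 3.11.15, pandas 2.3.3 and matplotlib 3.10.9 made the tables and figures.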

Additional observations from a re-analysis of the deposited data

Results flagged for a closer look

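The direct test of the mutants called a difference for 4 genes. Hdac1-deficient minus Hdac2-deficient enteroids gave 3.04 in log2 for Ggta1, 1.05 for B4galt2, -1.39 for B3gnt5 and -1.37 for Galntl6 (adjusted p from 4.3e-15 to 0.00034, edgeR's quasi-likelihood test).

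In 8 of 99 groups of 4 libraries (8.08%, where chance gives about 1 in 20) the highest or lowest library stood far from the other libraries of its group. The high ones were Hdac1-deficient replicate 2 for A4gnt (8.58 CPM) and for B3gnt5 (1.17 CPM), control replicate 1 for B3gnt7 (73.0 CPM), Hdac2-deficient replicate 1 for Chst4 (26.3 CPM), Hdac2-deficient replicate 3 for Fut1 (3.87 CPM) and Hdac1-deficient replicate 1 for Galntl6 (0.675 CPM). The low ones were Hdac1-deficient replicate 4 for B3gnt6 (0.145 CPM, from 4 counts) and Hdac2-deficient replicate 2 for Mgat4a (506.0 CPM). No 1 library accounted for more than 2 of the 8.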

How the results depend on the processing

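Without a fold limit the genes passing numbered 41 in Hdac1-deficient, 44 in Hdac2-deficient and 35 between the mutants, against 6, 5 and 4 called. Leaving out 1 library at a time gave 5 to 7, 5 to 6 and 3 to 6 calls. Other size factors, filters, fits and DESeq2 kept the counts within 1.5 times. Gcnt4 in Hdac1-deficient enteroids lost its call in 6 of 16 alternatives (log2 fold change 0.99 to 1.03), and B4galt2 between the mutants in 2 of 20 (0.91 to 1.14), while all other called genes stayed called in each alternative run. With the low-count filter lifted, B3gnt6 was called higher in both mutants, Chst2 higher in Hdac2-deficient and Galnt6os lower in Hdac1-deficient enteroids, from 0 to 17 counts per library. Without Hdac1-deficient replicate 3, Chst15 (-1.14) and Fut1 (-1.02) were called between the mutants as well. Signs reversed only for changes near 0 that did not pass. With 1 library left out, Chst4 in Hdac2-deficient enteroids ran from -0.0902 to 0.0168 (above 0 without Hdac2-deficient replicate 2, 3 or 4), Galnt3 from -0.0337 to 0.0199 (above 0 without control replicate 2 or Hdac2-deficient replicate 4), and C1galt1c1 between the mutants from -0.0002 (without Hdac2-deficient replicate 2) to 0.0573. With the replicate number as a block, calls numbered 6, 5 and 4. Same-numbered libraries correlated at -0.05 to 0.09 and not every library correlated best with its own number, so the numbers were not taken to pair libraries. Depth limits the genes under about 1 CPM, such as Galntl6.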
